A study of Rattus norvegicus with 7 samples.

Results

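The 9 genes described here are MAP kinases and their phosphatases: the p38 kinase genes Mapk14, Mapk11 and Mapk12, the ERK kinase gene Mapk3, the JNK kinase genes Mapk8 and Mapk9, and the dual specificity phosphatase genes Dusp1, Dusp4 and Dusp6. They were taken by symbol from a table of 17141 genes, and all 9 were found, 1 row each. The choice was made with their values in view, since Mapk14 was picked for being higher in 6 of 6 miRNA libraries, so the values below describe these libraries and no test was made of them. The cells were ventricular cardiomyocytes of wild type Wistar rats at postnatal day 0, in culture. Each culture was transfected with 25 nM of 1 synthetic miRNA and harvested for RNA at 72 h. Per the labels' protocols the atria were cut away, cells that stuck to plastic in a pre-plating step were left behind, and the remaining, mainly muscle, cells were used, all with the lipid reagent Lipofectamine RNAiMAX. The 7 libraries, 1 for each treatment, were cel-miR-67 (a nematode miRNA, used here as the reference because the authors' deposited ratios divide by it), hsa-miR-1825, hsa-miR-33b*, hsa-miR-199a-3p, hsa-miR-302d-3p, hsa-miR-373-3p and hsa-miR-590-3p, written below without the species prefix of the human sequences. The study's title concerns pathways shared by miRNAs that make cardiomyocytes proliferate. With 1 library per treatment no difference has a replicate check, and all 6 comparisons share the single cel-miR-67 library.

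MAP kinases are the last step of a relay in which a MAP kinase kinase kinase activates a MAP kinase kinase, which in turn phosphorylates the MAP kinase on a threonine and a tyrosine of its activation loop. ERK kinases mainly carry growth factor signals, whereas JNK and p38 kinases respond to stress and cytokines. Dual specificity phosphatases remove both phosphates and so switch the kinases off, and several of their genes are induced by the kinases they inactivate. In heart muscle cells p38 alpha, the product of Mapk14, is known as a brake on division, and its inhibition lets neonatal and adult cardiomyocytes re-enter the cell cycle. Kinase activity depends on phosphorylation, which transcript levels do not report.

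The only transfected miRNA with an entry of its own name in the RefSeq miRNA table (build GRCr8) was miR-199a-3p, as the rat miRNA at chr13:77116294-77116315 on the plus strand. It is shown because the miR-199a-3p library held the highest Mapk14 level and the lowest levels of Mapk8, Mapk12, Dusp4 and Dusp6. Capitals mark the seed, bases 2 to 8.
rno-miR-199a-3p: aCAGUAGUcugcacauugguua

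Levels are RPKM, reads normalised to the length of the gene and the size of the library, as the authors deposited them. The whole reads behind them could be worked out, and came to between 22616067 and 31963293 per library over the listed genes, of which 27.7% to 41.4% were mitochondrial. These totals were 85.5% (miR-199a-3p) to 109.5% (cel-miR-67) of the library sizes that the RPKM values imply, so RPKM were not scaled to the listed reads alone. A change is the difference in log2(RPKM + 1) between a library and cel-miR-67, and the background is the 12330 genes whose mean level over the 7 libraries reached 1 RPKM. Of the 9 genes 7 reach that mean and are counted, and Mapk11 and Mapk12 do not. The median change of the background lay between -0.0034 and 0.015 in the 6 libraries. When values were instead scaled by the sum of all reads in the table that median rose to between 0.012 and 0.31, so changes on that scale are to be read against it. The 95% intervals are exact ones for the read rate of 1 library over that of another. They carry no pseudocount, cover counting error only and say nothing of differences between cultures.

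Cardiomyocyte markers were plentiful: 11 matched genes (Tnnt2, Myh6, Actc1 and others) summed to 23122 RPKM with cel-miR-67 and to between 16926 and 22515 RPKM with the other miRNAs, and none was at 0. The 11 fibroblast markers summed to 853 RPKM with cel-miR-67 and to between 566 and 817 RPKM otherwise. Endothelial markers (8 matched) stood at 23.1 RPKM against 14.2 to 17.8, and macrophage and leukocyte markers (8 matched) at 16.2 RPKM against 8.70 to 14.9. The sums of these 4 lists were thus lower in all 6 miRNA libraries than with cel-miR-67. The median log2 change was below 0 in all 6 for the cardiomyocyte (-0.41 to -0.055) and the macrophage and leukocyte list (-0.34 to -0.018). That of the fibroblast list was 0.069 with miR-199a-3p, and that of the endothelial list was 0.0035 with miR-199a-3p and 0.042 with miR-1825. The most abundant genes weigh most in a sum, and the single markers did not all follow. Myl2 was at 6838 RPKM with cel-miR-67 and 7354 with miR-302d-3p, and Nppa at 1860 and, with miR-590-3p, 3098. Lum was higher in all 6 (5.52 RPKM against 5.95 to 8.49). Smooth muscle markers (8 matched) summed to 774 RPKM against 776 to 1195, and erythroid markers (4 matched) to 5.93 RPKM against 3.74 to 8.28. The median log2 change of the smooth muscle list did not follow its sum in every library. That median was 0.019 with miR-1825, 0.14 with miR-590-3p and 0.33 with miR-199a-3p. Elsewhere it was below 0, at -0.056 with miR-33b*, at -0.12 with miR-373-3p and at -0.17 with miR-302d-3p. In such bulk samples fewer cells of a type and less RNA per cell cannot be told apart. The part of these cell types in the values below was not tested.

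Mapk14 (ENSRNOG00000000513) was the gene of the 9 that lay on 1 side of cel-miR-67 in every miRNA library by more than counting error. Its level was 5.44 RPKM with cel-miR-67, 11.8 with miR-199a-3p, 11.7 with miR-1825, 10.8 with miR-302d-3p, 10.5 with miR-590-3p, 10.3 with miR-373-3p and 9.08 with miR-33b*. The cel-miR-67 library was the lowest by a wide gap, and the 6 miRNA libraries lay close together. The log2 changes in the same order of miRNAs were 0.99, 0.98, 0.87, 0.84, 0.80 and 0.65. The read rate with miR-199a-3p was 2.17 times that with cel-miR-67 (95% interval 1.99 to 2.37; 1896 against 731 reads), and that with miR-33b* 1.67 times (1.52 to 1.83; 1208 against 731 reads). Among the miRNA libraries, neighbours in the order were often within counting error: miR-199a-3p over miR-1825 had a ratio of 1.01 (0.947 to 1.08), miR-302d-3p over miR-590-3p 1.03 (0.963 to 1.10) and miR-590-3p over miR-373-3p 1.02 (0.957 to 1.10). The step from miR-1825 to miR-302d-3p (ratio 1.08, 1.02 to 1.15) and that from miR-373-3p to miR-33b* (1.13, 1.05 to 1.21) were larger than counting error.

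Mapk14 was at least 1.5-fold higher in 6 of 6 libraries. Of the background 0.584% of genes (72) met this limit in all 6, and 0.211% were as far below in all 6, as were 0 of the 7 genes counted. Counted by smallest change, 49 genes, Mapk14 included, had one at least as large as its 0.65. None of the other 6 genes counted reached 1.5-fold higher in any library, so the count was 1 of 7 in each. Scaled to total listed reads, Mapk9 with miR-199a-3p (0.79) and Dusp4 with miR-302d-3p (0.70) and with miR-373-3p (0.72) passed this limit too. The background share at least 1.5-fold higher was 4.81% with miR-199a-3p, 4.7% with miR-590-3p, 4.83% with miR-373-3p, 5.11% with miR-302d-3p, 5.17% with miR-33b* and 5.94% with miR-1825. Because these values chose Mapk14, its count says nothing further. With a pseudocount of 5 RPKM in place of 1 the limit was reached in 3 of the 6 libraries, and the 6 changes were 0.43 to 0.69.

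**Figure D1:**
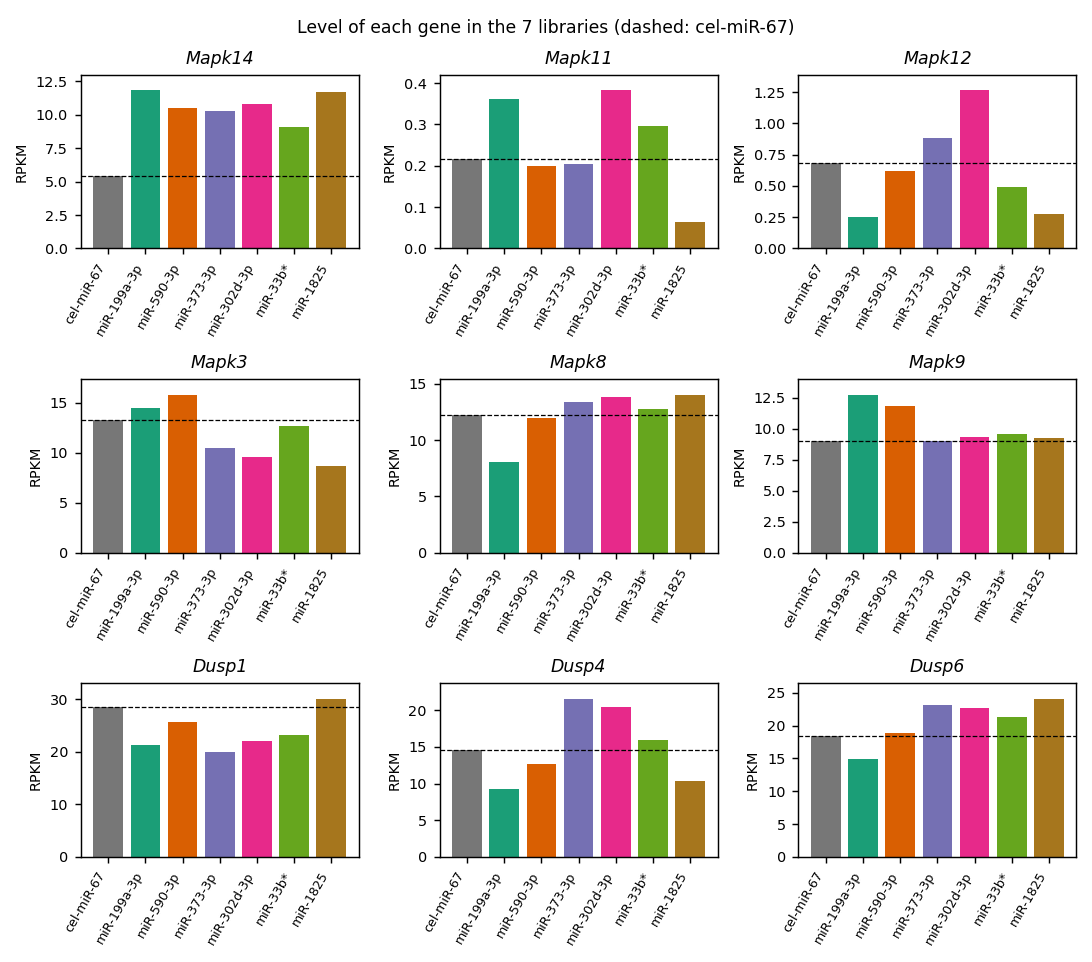
Level (RPKM, linear axis from 0) of each of the 9 genes in the 7 libraries, 1 bar per library with no replicates; the dashed line is the cel-miR-67 level. Mapk14 stands at 5.44 RPKM with cel-miR-67 and at 9.08 to 11.8 RPKM in the miRNA libraries, while the other genes lie on both sides of the line.

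The other p38 genes did not follow the pattern of Mapk14. Mapk11 (ENSRNOG00000006984), which encodes p38 beta, stood at 0.216 RPKM with cel-miR-67, 0.362 with miR-199a-3p, 0.200 with miR-590-3p, 0.205 with miR-373-3p, 0.383 with miR-302d-3p, 0.296 with miR-33b* and 0.0652 with miR-1825. These levels rest on 5 to 38 reads, and only with miR-1825 did the interval of the ratio to cel-miR-67 leave out 1 (0.302, 0.0852 to 0.888). Mapk12 (ENSRNOG00000031233), which encodes p38 gamma, a form prominent in striated muscle, stood at 0.685 RPKM with cel-miR-67, 0.253 with miR-199a-3p, 0.617 with miR-590-3p, 0.879 with miR-373-3p, 1.26 with miR-302d-3p, 0.488 with miR-33b* and 0.273 with miR-1825. Its reads numbered 15 to 96. The ratio to cel-miR-67 was 0.370 (0.187 to 0.697) with miR-199a-3p, 0.398 (0.205 to 0.741) with miR-1825 and 1.84 (1.24 to 2.81) with miR-302d-3p, and the other 3 intervals held 1. Mapk12 was therefore low in the 2 libraries where Mapk14 was highest, at levels where few reads set the precision.

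Within the p38 family Mapk14 made up most of the transcripts per length in every library. Of the summed RPKM of Mapk14, Mapk11, Mapk12 and Mapk13 it took 83.9% with cel-miR-67, 94.9% with miR-199a-3p, 92.4% with miR-590-3p, 89.9% with miR-373-3p, 85.4% with miR-302d-3p, 91.6% with miR-33b* and 96.4% with miR-1825. The sum itself was 6.49 RPKM with cel-miR-67 and 9.92 to 12.6 RPKM in the miRNA libraries. The share of Mapk14 within its family was thus higher in each miRNA library than with cel-miR-67. With miR-302d-3p the difference was small (85.4% against 83.9%). No interval was computed for these shares, which rest on few reads of Mapk11 and Mapk12 (14 and 34 with cel-miR-67). They also hold the Mapk14 values that chose the gene.

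The genes whose pattern was most like that of Mapk14 over the 7 libraries were sought among 7435 protein-coding genes averaging 5 RPKM or more. The measure was the root mean square difference of log2(RPKM + 1), centred on each gene's mean. The nearest were AABR07027811.4 (difference 0.0972), Hist1h2bb (0.107), Fancd2 (0.116), Fam172a (0.118) and Hist1h2bo (0.121). Hist1h2bb and Hist1h2bo are histone H2B genes, whose near-identical copies can share reads, so their own values are uncertain. Fancd2, of DNA crosslink repair, stood at 4.64 RPKM with cel-miR-67 and at 5.77 to 9.34 RPKM in the others.

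Promoter sequence was at hand for 6 of the 9 genes in the RefSeq table (build GRCr8), as windows of 300 bases from 250 before to 50 after the transcription start. Those of Mapk14, at chr20:6751109-6751408 on the plus strand, and Dusp1, at chr10:17184603-17184902 on the plus strand, are shown as the gene higher in all 6 libraries and the phosphatase gene lower in 5 of 6. Capitals mark TCTCGCGAGA in Mapk14 and TGACGTCA, the cAMP response element, in Dusp1.
Mapk14: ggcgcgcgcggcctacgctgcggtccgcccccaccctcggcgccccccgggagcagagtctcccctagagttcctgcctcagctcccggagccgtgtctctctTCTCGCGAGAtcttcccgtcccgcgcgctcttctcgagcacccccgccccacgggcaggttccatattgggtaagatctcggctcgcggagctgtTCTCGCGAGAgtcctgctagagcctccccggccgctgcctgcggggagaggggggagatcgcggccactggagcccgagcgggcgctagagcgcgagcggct
Dusp1: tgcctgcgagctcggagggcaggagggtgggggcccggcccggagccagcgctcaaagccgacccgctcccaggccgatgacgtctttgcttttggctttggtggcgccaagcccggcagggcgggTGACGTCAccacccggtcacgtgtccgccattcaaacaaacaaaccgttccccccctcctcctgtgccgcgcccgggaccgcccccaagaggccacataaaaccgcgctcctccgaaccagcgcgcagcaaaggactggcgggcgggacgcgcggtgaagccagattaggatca

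The letters TCTCGCGAGA, chosen for the search after the window was read, read the same on both strands and occurred 2 times in the Mapk14 window, starting at positions -147 and -52 relative to the transcription start. Of 33469 promoters of the same length 0.373% held them at least once and 10 promoters (0.0299%) at least 2 times. TGACGTCA, also the same on both strands, began at position -124 of the Dusp1 window and occurred in 1.83% of promoters. The GC box GGGCGG, searched on both strands, was found 2 times in Mapk14, 4 in Mapk11, 3 in Mapk8, 3 in Dusp1, 1 in Mapk12 and 0 in Dusp6, against 33.1% of promoters with at least 1. No 2 of these matches overlap in the Mapk14 or Dusp1 window. Neither the AP-1 site TGACTCA (4.63% of promoters), the ETS core CCGGAAG (8.75%) nor the TATA box TATAAA (14.2%) occurred in any of the 6 windows, on either strand. A match is a string of letters and not a measured binding site.

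The ERK and JNK genes moved in different libraries and by less than Mapk14. Mapk3 (ENSRNOG00000053583), which encodes ERK1, stood at 13.2 RPKM with cel-miR-67, 14.4 with miR-199a-3p, 15.8 with miR-590-3p, 10.5 with miR-373-3p, 9.56 with miR-302d-3p, 12.7 with miR-33b* and 8.63 with miR-1825. It was lowest with miR-1825, with a read rate ratio of 0.653 (0.573 to 0.744), and was also below cel-miR-67 beyond counting error with miR-302d-3p (0.723, 0.642 to 0.814) and miR-373-3p (0.791, 0.701 to 0.891). With miR-590-3p it was above (1.20, 1.07 to 1.34).

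Mapk8 (ENSRNOG00000020155), the JNK1 gene, stood at 12.2 RPKM with cel-miR-67, 8.10 with miR-199a-3p, 11.9 with miR-590-3p, 13.4 with miR-373-3p, 13.8 with miR-302d-3p, 12.8 with miR-33b* and 14.1 with miR-1825. Only the miR-199a-3p library stood clearly off the others, with a ratio to cel-miR-67 of 0.662 (0.582 to 0.754) and a log2 change of -0.54. The ratios of 1.13 (1.02 to 1.26) with miR-302d-3p and 1.15 (1.03 to 1.29) with miR-1825 were small but beyond counting error. The other JNK gene, Mapk9 (JNK2, ENSRNOG00000002823), went the opposite way in that library. It stood at 9.02 RPKM with cel-miR-67, 12.8 with miR-199a-3p, 11.8 with miR-590-3p, 9.01 with miR-373-3p, 9.36 with miR-302d-3p, 9.57 with miR-33b* and 9.27 with miR-1825. Its ratio was 1.41 (1.32 to 1.51) with miR-199a-3p and 1.31 (1.22 to 1.40) with miR-590-3p, and within counting error of 1 in the other 4. Per length, Mapk8 was at 1.36 times the level of Mapk9 with cel-miR-67 and at 0.635 times with miR-199a-3p, while the summed level of both was 21.3 and 20.9 RPKM. The order of the JNK genes was thus reversed with miR-199a-3p at a similar sum. With miR-590-3p the ratio was 1.01, and in the other 4 libraries 1.33 to 1.52.

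**Figure D2:**
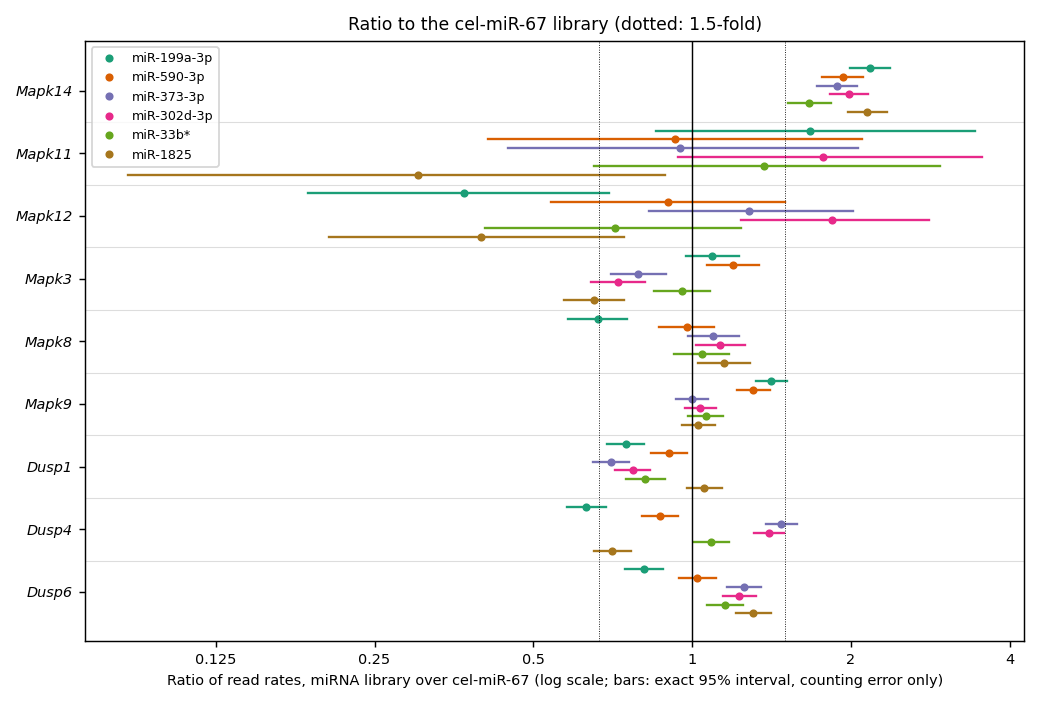
Ratio of read rates of each miRNA library over cel-miR-67 (log axis), 1 point per gene and library, with exact 95% intervals that cover counting error only; dotted lines mark 1.5-fold. All 6 intervals of Mapk14 lie above 1.5, those of Mapk11 and Mapk12 are wide because of few reads, and Dusp4 has libraries on both sides of 1.

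The phosphatase genes were on average more abundant per length than the kinase genes, with means over the 7 libraries of 14.96 RPKM (Dusp4), 20.5 RPKM (Dusp6) and 24.5 RPKM (Dusp1) against at most 12.3 RPKM (Mapk8), and each had its own pattern. Dusp1 (MKP-1, ENSRNOG00000003977), a nuclear phosphatase and immediate early gene that acts on p38 and JNK, stood at 28.5 RPKM with cel-miR-67, 21.3 with miR-199a-3p, 25.8 with miR-590-3p, 20.0 with miR-373-3p, 22.0 with miR-302d-3p, 23.3 with miR-33b* and 30.1 with miR-1825. It was lower than cel-miR-67 in 5 of 6 libraries, by ratios of 0.702 (0.648 to 0.761) with miR-373-3p to 0.903 (0.834 to 0.978) with miR-590-3p. With miR-1825 the ratio was 1.06 (0.979 to 1.14). None of these changes reached 1.5-fold, and the lowest log2 change was -0.49.

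Dusp4 (MKP-2, ENSRNOG00000011921), a nuclear phosphatase of ERK and JNK, split the libraries. It stood at 14.6 RPKM with cel-miR-67, 21.6 with miR-373-3p, 20.4 with miR-302d-3p, 15.9 with miR-33b*, 12.7 with miR-590-3p, 10.3 with miR-1825 and 9.21 with miR-199a-3p. The 2 highest levels came with miR-302d-3p and with miR-373-3p, which share a seed, at ratios to cel-miR-67 of 1.40 (1.31 to 1.49) and 1.48 (1.38 to 1.58). The lowest ratios were 0.631 (0.580 to 0.685) with miR-199a-3p and 0.706 (0.651 to 0.765) with miR-1825. With the pseudocount of 1 RPKM its log2 change of -0.61 with miR-199a-3p passed the 1.5-fold limit in the lower direction, as 5.55% of the background did there, and no other of the 7 genes passed it in any library. That call was lost with a pseudocount of 5 RPKM (-0.46), when scaled to total listed reads (-0.29) and when scaled to reads outside the mitochondrial genome (-0.55). With a pseudocount of 0.1 RPKM Mapk3 with miR-1825 (-0.61) and Mapk8 with miR-199a-3p (-0.59) passed the limit as well. Every step between neighbours in the order of Dusp4 was larger than counting error, and its coefficient of variation over the 7 libraries, 31.6%, was the widest of the 7 genes.

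Dusp6 (MKP-3, ENSRNOG00000023896), a cytoplasmic phosphatase specific for ERK whose own transcription follows ERK activity, stood at 18.4 RPKM with cel-miR-67, 14.9 with miR-199a-3p, 18.8 with miR-590-3p, 23.1 with miR-373-3p, 22.6 with miR-302d-3p, 21.3 with miR-33b* and 24.1 with miR-1825. The miR-199a-3p library alone lay below cel-miR-67 (ratio 0.810, 0.746 to 0.881). The highest ratio was 1.31 (1.21 to 1.41) with miR-1825, and that of miR-590-3p was within counting error of 1 (1.02, 0.943 to 1.11). With miR-1825 Dusp6 was high while Dusp4 was low. With miR-199a-3p all 3 phosphatase genes were low, and their summed level was 45.5 RPKM against 61.6 RPKM with cel-miR-67 and 57.3 to 65.1 RPKM in the other 5. Scaled to total listed reads, Dusp6 with miR-199a-3p was at a log2 change of 0.0506 and Dusp1 at -0.0605, against a background median of 0.31 on that scale. The miR-199a-3p library also had the lowest cardiomyocyte marker sum (16926 RPKM), the highest smooth muscle marker sum (1195 RPKM) and the lowest mitochondrial share of reads (27.7%), whose part in these values was not tested.

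The libraries of the same-seed miRNAs give a view of how far 2 treated cultures of like design stood apart. Between miR-302d-3p and miR-373-3p the 7 genes counted differed by at most 0.13 on the log2 scale (Dusp1, 22.0 against 20.0 RPKM). Over all 9 genes 4 of these 9 intervals left out 1, those of Mapk11, Mapk12, Dusp1 and Dusp4, while of the 54 intervals against cel-miR-67 35 did. Mapk14 differed by 0.069 between the pair and by 0.65 to 0.99 from cel-miR-67. A single pair of libraries is no estimate of the spread between cultures, and none was made for cel-miR-67.

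Among 7 genes, 1 (Mapk14) was above cel-miR-67 in all 6 libraries by any size and 0 were below in all 6, where 13.9% and 13.4% of the background were. The median change of the 7 was -0.29 with miR-199a-3p, 0.030 with miR-590-3p, 0.12 with miR-373-3p, 0.16 with miR-302d-3p, 0.077 with miR-33b* and 0.076 with miR-1825. Mapk9 was above in 5 of 6 and at -0.00079 with miR-373-3p. Scaled to reads outside the mitochondrial genome Mapk9 was above in all 6, by 0.012 to 0.52, where the background median was 0.0065 to 0.052. Scaled to total listed reads Mapk9 and Dusp6 were above as well in all 6, by 0.16 to 0.79 and 0.044 to 0.52, where the background median itself was above 0. With miR-199a-3p, 3 of the 7 were above 0 (Mapk14, Mapk9 and Mapk3) and 4 below.

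The wider pathway was taken from 10 lists of 119 genes, of which 111 were found in the table and 90 had a mean of at least 1 RPKM. In all 6 libraries together, 0 of the 90 were at least 1.5-fold higher and 0 at least 1.5-fold lower, where 0.584% and 0.211% of the background were. By any size 4 were higher in all 6 (4.44%) and 17 lower in all 6 (18.9%), against 13.9% and 13.4% of the background. Scaled to total listed reads these counts were 18 and 6. Background shares were not computed on that scale, where the background median lay at 0.012 to 0.31, so the shares above do not apply to them. The 4 higher, of which Spag9, Ksr1 and Rps6ka2 are named after their values were seen, were the scaffold genes Spag9 (log2 0.0345 to 0.30) and Ksr1 (0.060 to 0.30) and the kinase genes Rps6ka2 (0.060 to 0.41) and Rps6ka6 (0.00212 to 0.92). Per library, 1 to 11 of the 90 were at least 1.5-fold lower: 1.11% with miR-199a-3p, 3.33% with miR-590-3p, 12.2% with miR-373-3p, 10.0% with miR-302d-3p, 4.44% with miR-33b* and 5.56% with miR-1825. The background shares were 5.55%, 3.49%, 6.56%, 7.32%, 5.52% and 6.33%. At most 1 of the 90 in a library (0% to 1.11%) was at least 1.5-fold higher, where 4.7% to 5.94% of the background were.

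Upstream of p38, the activating kinase gene Map2k3 was at 11.9 RPKM with cel-miR-67 and at 7.63 to 11.7 RPKM in the others, below it in all 6, with log2 changes of -0.58 (miR-302d-3p) to -0.021 (miR-199a-3p). With miR-199a-3p the sign of Map2k3 turned when scaled to total listed reads (0.31) and to reads outside the mitochondrial genome (0.038). Map2k4, whose product activates JNK and p38, was at 26.8 RPKM and 26.3 to 35.0 RPKM. The ERK activator gene Map2k1 was at 20.8 RPKM with cel-miR-67, 15.2 with miR-199a-3p and 24.4 to 30.0 in the other 5. Among MAP kinase kinase kinases, Map3k20 (in the table under its older symbol Zak), a sensor of ribosome stress, was at 41.2 RPKM with cel-miR-67, 59.6 with miR-199a-3p and 59.5 with miR-1825. It differed between the same-seed libraries, at 33.5 RPKM with miR-373-3p and 23.5 with miR-302d-3p. Map3k11 was at -0.74 with miR-199a-3p and -0.69 with miR-1825 on the log2 scale, and Map3k2 reached 0.54 with miR-33b*.

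Downstream of p38, Mapkapk2, the main substrate kinase, was at 69.1 RPKM with cel-miR-67 and at 53.9 to 76.2 RPKM in the others. Its relative Mapkapk3 stood at 4.53 RPKM with cel-miR-67, 9.68 with miR-199a-3p, 7.91 with miR-590-3p, 4.25 with miR-373-3p, 4.01 with miR-302d-3p, 5.67 with miR-33b* and 3.86 with miR-1825. Mapkapk3 was thus high in the 2 libraries that were also high in Mapk9 (log2 0.95 and 0.69). Rps6ka6, taken from the wider list of kinases activated by MAP kinases and not as a p38 target, was highest with miR-373-3p (0.92) and miR-302d-3p (0.85). Its level with cel-miR-67 was low, at 0.558 RPKM.

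Among the other kinases and phosphatases, Mapk7, the gene of the large kinase ERK5, was below cel-miR-67 in all 6 libraries: 3.83 RPKM with cel-miR-67, 2.44 with miR-199a-3p, 1.96 with miR-590-3p, 1.39 with miR-373-3p, 1.12 with miR-302d-3p, 2.76 with miR-33b* and 2.03 with miR-1825. At log2 changes of -1.02 with miR-373-3p and -1.18 with miR-302d-3p, Mapk7 came next to Etv1 as the lowest of the 90 genes there. Nlk, the gene of an atypical MAP kinase, was at 0.44 with miR-302d-3p. The JNK and p38 phosphatase gene Dusp8 was lower in all 6 (-0.63 to -0.024), from 6.73 RPKM with cel-miR-67. Dusp3 was at -0.77 with miR-33b*, and Dusp19 at 0.46 with miR-373-3p. Dusp11 has 2 rows in the table, between which reads could be split, and the row with the higher mean was used.

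Genes that ERK signalling is known to induce as feedback had a median change below 0 in all 6 libraries. Scaled to total listed reads, however, their median was 0.17 with miR-199a-3p and only -0.025 with miR-373-3p. Of 10 with a mean of at least 1 RPKM, 5 were below cel-miR-67 in all 6 libraries and 0 above in all 6, where 13.4% and 13.9% of the background were. The 5 were Spry1, Spry2, Spry4, Etv1 and Phlda1. Scaled to total listed reads these counts were 2 (Spry1 and Phlda1) and 1, and scaled to reads outside the mitochondrial genome 4 (without Spry4) and 0. Background shares were not computed under these 2 scalings. The background median lay at 0.012 to 0.31 on the first and at 0.0065 to 0.052 on the second. Spry1, an inhibitor of receptor tyrosine kinase signalling, stood at 10.5 RPKM with cel-miR-67 and at 5.85 (miR-1825) to 7.91 RPKM (miR-199a-3p) in the others. Etv1, an ETS factor gene, stood at 5.30 RPKM with cel-miR-67, 5.06 with miR-199a-3p, 2.63 with miR-590-3p, 1.87 with miR-373-3p, 1.60 with miR-302d-3p, 3.16 with miR-33b* and 2.67 with miR-1825. The median change of the list ran from -0.38 with miR-302d-3p to -0.11 with miR-590-3p. Dusp6, which belongs to the same class of ERK-induced genes, was above cel-miR-67 in 5 of these 6 libraries. Beside these values, the cardiomyocyte, fibroblast, endothelial and macrophage marker sums were also lower in all 6, with the fibroblast and endothelial medians given above on the other side of 0 in 1 and 2 libraries. Single markers such as Myl2, Nppa and Lum went the other way in some or all libraries, as given above.

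Immediate early genes, several of which share induction by MAP kinases with Dusp1, lay lowest with miR-373-3p. Of 10 with a mean of at least 1 RPKM, 5 were at least 1.5-fold lower there and 2 with miR-302d-3p, where 6.56% and 7.32% of the background were, and the list medians were -0.58 and -0.22 (-0.43 and -0.089 when scaled to total listed reads). With miR-1825 the median was 0.12. Fos stood at 8.52 RPKM with cel-miR-67, 6.68 with miR-199a-3p, 5.82 with miR-590-3p, 4.27 with miR-373-3p, 3.93 with miR-302d-3p, 4.46 with miR-33b* and 7.77 with miR-1825. Fos was nearest to its cel-miR-67 level with miR-1825, at a log2 change of -0.12, where Dusp1 was at 0.076. Jund was at 1.11 with miR-1825 and 0.53 with miR-33b*, and it differed between the same-seed libraries, at 7.15 RPKM with miR-373-3p and 13.8 RPKM with miR-302d-3p. Ier3 was at -0.58 with miR-199a-3p and -0.69 with miR-373-3p.

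**Figure D3:**
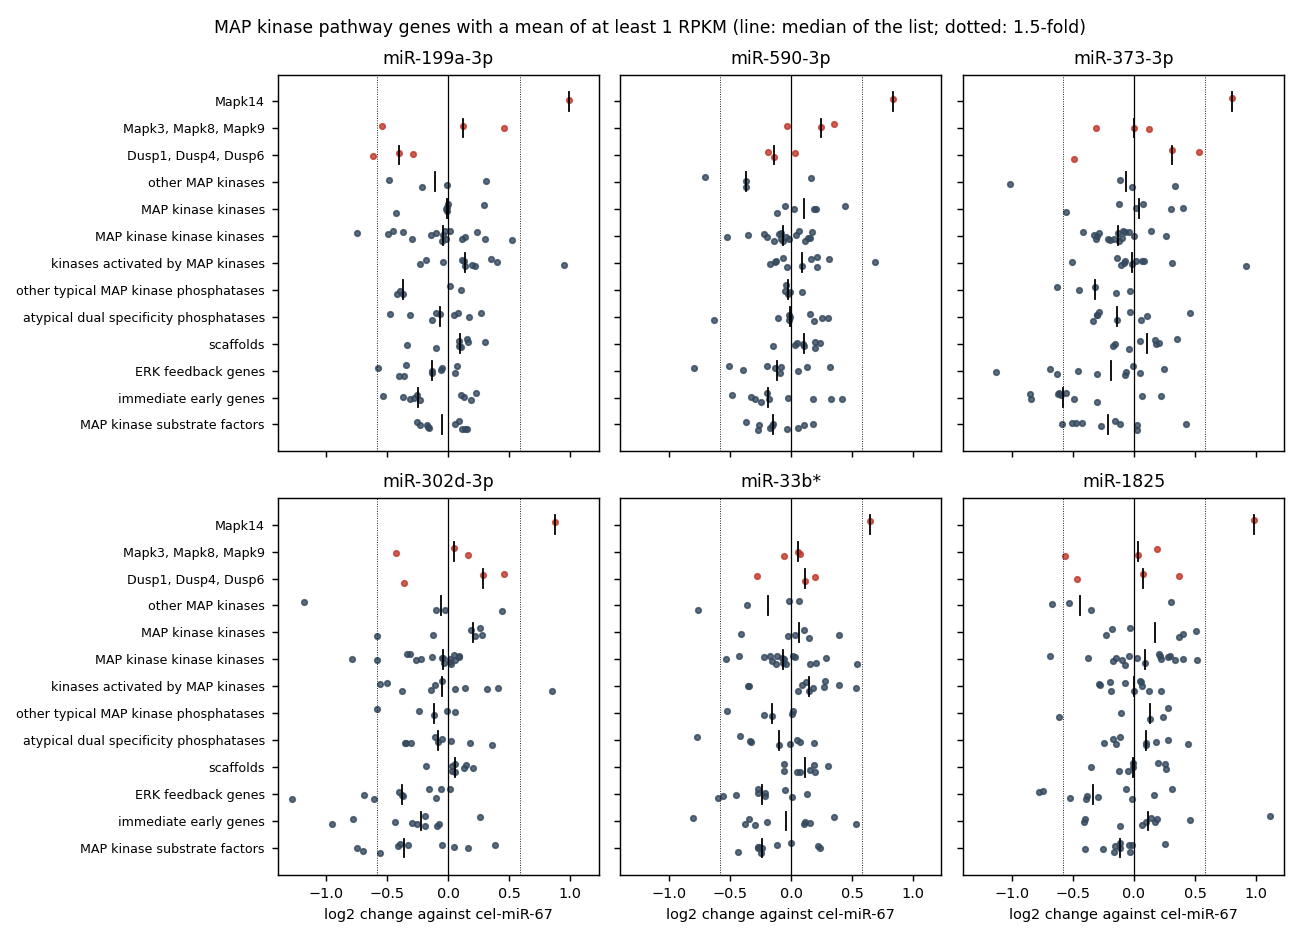
Log2 change against cel-miR-67 of the pathway genes averaging 1 RPKM or more, 1 panel per miRNA library, 1 point per gene, grouped by list (vertical jitter has no meaning); black lines are list medians and dotted lines 1.5-fold. Mapk14, in the top line, lies beyond 1.5-fold in all 6 panels, and Etv1 and Mapk7 are among the lowest points with miR-373-3p and miR-302d-3p.

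The Mapk14 change was also computed with other pseudocounts, other scalings and another reference. Against cel-miR-67 it was above 0 in 6 of 6 libraries under both other pseudocounts and all 3 other scalings, with changes of 0.43 to 1.33. When each miRNA library was compared with the mean level of the remaining 5, a reference without cel-miR-67, the changes were 0.16 with miR-199a-3p, 0.14 with miR-1825, 0.016 with miR-302d-3p, -0.028 with miR-590-3p, -0.067 with miR-373-3p and -0.25 with miR-33b*. That reference ranks the miRNA libraries among themselves and holds no information on a rise shared by all 6. The difference common to the 6 libraries therefore rests on the 1 library of cel-miR-67, with 731 reads of Mapk14.

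**Figure D4:**
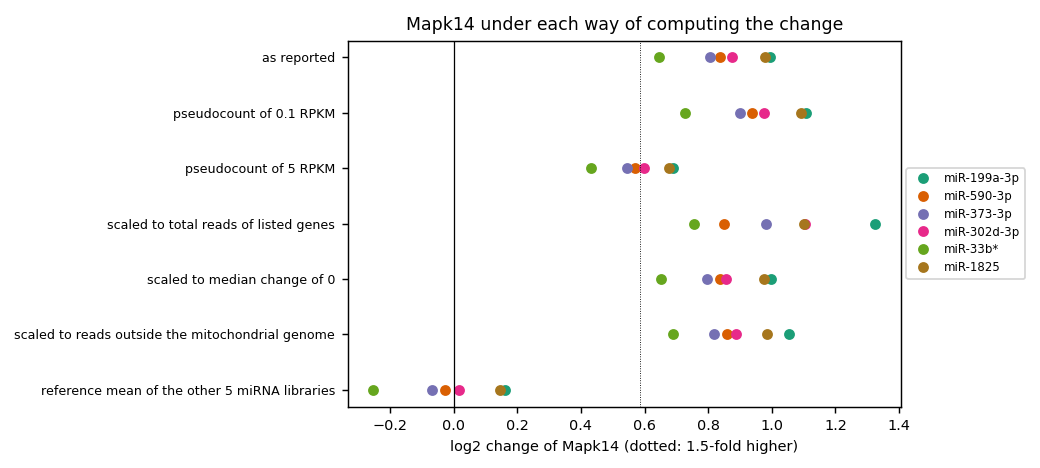
Log2 change of Mapk14 in each miRNA library under 7 ways of computing it, 1 point per library and row; the dotted line marks 1.5-fold higher. In the rows with cel-miR-67 as the reference every point lies above 0, and with the other miRNA libraries as the reference the points lie from -0.25 to 0.16.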

How the data were processed

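RNA of 7 cardiomyocyte cultures was sequenced as mRNA libraries, per the labels' protocols. The authors deposited RPKM for 17141 genes, with ratio columns that divide by the cel-miR-67 value and were not used. Per the submitters' processing notes the tools were STAR 2.7 and edgeR and the build was Rnor_6.0. Their settings, the annotation, the read counter and any use of strand were not given in the sources used here. All 7 single-sample files held the same RPKM as the series table.

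The reads behind RPKM were solved for as whole numbers that fit 1 length per gene and 1 size per library (100% of genes, tolerance 0.002 reads, up to 0.05 for genes with many reads), a step tested on simulated data. Ratios of read rates have exact Clopper-Pearson 95% intervals. Changes used a pseudocount of 1 RPKM and, for counts, a limit of 1.5-fold and a mean of at least 1 RPKM. Because each group has 1 library, no p-value was computed. The 9 genes and the lists were chosen with earlier results of these data known. Beside the 9, the text names by rule pathway genes beyond 1.5-fold in all 6 libraries (0 were found), the 2 highest and 2 lowest of the lists in each library, and the 5 genes most like Mapk14. Other genes are named as examples of their role, after their values were seen. Motif positions are those of the first letter relative to the transcription start. Python 3.11.15, numpy 2.4.6, scipy 1.17.1 and pandas 2.3.3 were used. Alternatives were other pseudocounts, scalings, filters, limits and another reference.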

Additional observations from a re-analysis of the deposited data

How the results depend on the processing

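The main limit is 1 library per treatment, with the cel-miR-67 library shared by all comparisons. No paired analysis was possible because the labels give no replicate numbers and each group has 1 library. Leaving out a replicate was not possible for the same reason. Depth limits Mapk11 and Mapk12, with 5 to 38 and 15 to 96 reads.

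Values of 24 single genes under 6 alternatives, 864 in all, were set against the margin (centre to edge, on the log2 scale) of their counting interval. Of these 670 moved by less than that margin and 188 by more. The other 6, changes of at least 1.5-fold, turned sign, all 6 with the mean of the other 5 miRNA libraries as the reference. These were Mapk14 with miR-33b* (-0.25), miR-373-3p (-0.067) and miR-590-3p (-0.028), Etv1 with miR-33b* (0.14), and Mapk7 with miR-590-3p (0.00395) and miR-1825 (0.045). That reference holds no information on a change shared by all 6 libraries, so these sign turns do not bear on the changes against cel-miR-67. With it Mapk14 was 1.5-fold higher in 0 libraries instead of 6. By construction 0 pathway genes were higher and 0 lower in all 6. There the pathway genes at least 1.5-fold higher numbered 3 with miR-199a-3p, 1 with miR-33b* and 0 with miR-373-3p, miR-302d-3p or miR-590-3p, and those lower 5 with miR-302d-3p, 2 with miR-373-3p, 2 with miR-33b*, 1 with miR-1825 and 0 with miR-590-3p.

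Scaled to total listed reads, 18 pathway genes were higher and 6 lower in all 6 libraries, 9 (miR-199a-3p), 4 (miR-302d-3p), 4 (miR-373-3p), 3 (miR-1825) and 3 (miR-33b*) were at least 1.5-fold higher, and 4 (miR-373-3p), 3 (miR-1825), 3 (miR-302d-3p) and 0 (miR-199a-3p) lower; the background median rises on this scale. With a pseudocount of 5 RPKM Mapk14 was 1.5-fold higher in 3 libraries, 0 pathway genes were higher with miR-373-3p, miR-302d-3p or miR-590-3p, and 0 (miR-1825, miR-590-3p, miR-199a-3p), 1 (miR-373-3p), 2 (miR-33b*) and 3 (miR-302d-3p) were lower. With 0.1 RPKM, 2 (miR-590-3p), 2 (miR-33b*), 2 (miR-373-3p) and 4 (miR-1825) were higher and 6 (miR-199a-3p), 14 (miR-302d-3p) and 14 (miR-373-3p) lower.

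With a mean of at least 5 RPKM required, 1 pathway gene was higher and 9 lower in all 6, 0 were 1.5-fold higher with miR-302d-3p or miR-373-3p, and 7 (miR-373-3p), 5 (miR-302d-3p), 1 (miR-590-3p), 1 (miR-1825) and 0 (miR-199a-3p) were lower; fewer genes enter under this filter. With a limit of 2-fold, 0 were higher with miR-373-3p, miR-302d-3p, miR-199a-3p or miR-590-3p, and 0 (miR-1825, miR-33b*, miR-590-3p, miR-199a-3p) and 2 (miR-302d-3p, miR-373-3p) were lower. Without a filter, with the median change set to 0 and with scaling to reads outside the mitochondrial genome, every count of pathway genes stayed within 1.5 times its reported value. Under the other settings of this section, counts that stayed within that range are mostly not listed. Background shares were not computed under any alternative setting, so these counts cannot be set against those of all genes.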

Other observations

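Of the pathway genes under a mean of 1 RPKM, chosen here after their values were seen, Dusp26, an atypical dual specificity phosphatase gene, stood at 1.96 RPKM with cel-miR-67, 2.03 with miR-199a-3p, 1.22 with miR-590-3p, 0.383 with miR-373-3p, 0.143 with miR-302d-3p, 0.551 with miR-33b* and 0.485 with miR-1825. It was thus near its cel-miR-67 level with miR-199a-3p and lower in the other 5, and lowest in the same-seed pair. Map2k6, the second kinase gene that activates p38 beside Map2k3, stood at 0.644 RPKM with cel-miR-67, 1.31 with miR-199a-3p, 0.444 with miR-590-3p, 0.707 with miR-373-3p, 0.706 with miR-302d-3p, 1.11 with miR-33b* and 0.598 with miR-1825. Map2k6 was highest in the library with the highest Mapk14 level, miR-199a-3p, and second highest in the miRNA library with the lowest, miR-33b*.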
